A study of Homo sapiens with 54 samples.

Results

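Histone chaperones are proteins that hold newly made or displaced histones and pass them to the machinery that builds nucleosomes. The 8 genes described here, *NASP*, *ASF1A*, *ASF1B*, *CHAF1A*, *CHAF1B*, *HIRA*, *DAXX* and *HJURP*, were taken by name from each of 4 tables of gene expression, where they are 8 of 55906 gene rows. All 8 passed the filter on low values in all 4 cell lines. NASP keeps a reserve of soluble histones H3 and H4. ASF1A and ASF1B are paralogs that receive H3-H4 dimers and hand them on to the depositing complexes. CHAF1A and CHAF1B are the large and middle subunits of chromatin assembly factor 1 (CAF-1), which places H3-H4 on newly replicated DNA. HIRA and DAXX place the replication-independent variant H3.3, DAXX together with the remodeller ATRX, and HJURP places the centromeric variant CENP-A. In dividing cells much of this traffic belongs to S phase, and HJURP acts mainly as cells leave mitosis. TRA2A and TRA2B are paralogous RNA-binding proteins that promote the use of exons rich in GAA repeats, and *NASP* carries an exon known to depend on them.

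RNA-seq was carried out in 54 libraries, which form 18 groups of 3 replicates from 4 established cancer cell lines. A549 and NCI-H23 are lung adenocarcinoma lines. All their groups carried Zim3-dCas9, a transcriptional repressor that works by CRISPR interference (CRISPRi), in a sorted population rather than a clone, and received control guides (Control KD), *TRA2A* guides (TRA2A KD), *TRA2B* guides (TRA2B KD) or both (TRA2A/B DKD) for 5 days. LN229 and LN319 are glioblastoma lines. All their groups, controls included, carried Cas9 and an added transgene, either luciferase (Luc) or *TRA2B* (TRA2B-OE), and were collected 7 days after the guides were delivered. With luciferase the guides were control (Luc Control KO), *TRA2A* (Luc TRA2A KO) or *TRA2B* (Luc TRA2B KO), and with the *TRA2B* transgene they were control (TRA2B-OE Control KO) or *TRA2A* (TRA2B-OE TRA2A KO). The study classed NCI-H23 and LN319 as dependent on *TRA2A* for growth, and A549 and LN229 as independent of it. The labels number the replicates without saying whether they came from separate cultures, so the p-values measure only the spread between these samples, which may be technical. Levels are in TPM, the share of a library's transcripts after division by transcript length. In bulk samples such as these, fewer cells of a type and less RNA per cell cannot be told apart.

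The TPM of a library summed to between 928908 and 964610, and TPM keeps no record of sequencing depth. *TRA2A* stood at 9.56% (A549) and 6.54% (NCI-H23) of the control mean after its own knockdown, and at 13.9% and 20.5% in the DKD. *TRA2B* stood at 9.68% and 10.6% after its own knockdown, and at 16.3% and 25.2% in the DKD. After knockout *TRA2A* was at 33.2% (LN319) and 62.9% (LN229) of the Luc control, and *TRA2B* at 35.1% and 66.0%. In LN229 with the transgene the *TRA2A* guides left *TRA2A* at 87.2% of its control, with libraries that overlapped (limma adjusted p = 0.0793), so RNA does not check that label. The *TRA2B* transgene brought *TRA2B* to 374% (LN229) and 873% (LN319) of the Luc control. The keratins *KRT8* and *KRT18* were abundant in the lung lines (control means of 772 TPM or more), while the lung markers *NKX2-1* and *SFTPC* stood below 1 TPM in both. *CDH1*, *KRT19* and *EPCAM* stood at 21.7, 5.85 and 2.76 TPM in A549 and at 1.94, 0.0766 and 1.28 TPM in NCI-H23. *SOX2* stood at 81.9 TPM in LN229 and 402 TPM in LN319, while *GFAP* stood at 2.84 and 2.13 TPM. *VIM*, also on the list of glioma markers, stood at 3031 and 3265 TPM, but was abundant in A549 (1106 TPM) and NCI-H23 (1599 TPM) too. The other glioma markers *S100B*, *NES* and *OLIG2* stood at 455, 273 and 9.78 TPM in LN229 but at 0.348, 7.55 and 0.01 TPM in LN319. There the epithelial and lung markers *CDH1* (123 TPM) and *NKX2-1* (7.98 TPM) stood higher than in either lung line. So did *KRT19* (8.61 TPM) and *SFTPC* (0.813 TPM), while *KRT8* (120 TPM), *KRT18* (97.0 TPM) and *EPCAM* (0.394 TPM) stood lower than in either lung line. One A549 control library (Control KD replicate 3) had the lowest median correlation with the other libraries of its line, 0.837 against 0.872 for the next. In LN229, replicate 1 of both control groups stood apart in several of the genes described here. Values without these libraries are given beside the results they move.

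The *NASP* gene (ENSG00000132780) lies at chr1:45583846-45618904 on the plus strand (GRCh38, Gencode v44 annotation). Its exon 6 of 15 in the transcript NASP-201, at chr1:45607321-45608337, is coding over all of its 1017 bases, or 339 codons, and is absent from NASP-202. It makes up 31.5% of the 3225 bases of NASP-201. The word AGAA, which holds the GAA core that TRA2 proteins bind, occurs 29 times in it on the transcript strand with overlaps counted, or 2.85 per 100 bases. Of 6054 internal coding exons of at least 300 bases, 1.67% had this density or more, and their median was 0.656 per 100 bases. The densest 300 bases, chr1:45607562-45607861, hold 12 of the words, and 2.97% of those exons have such a window. This stretch is shown because it is where *NASP* RNA is rich in the TRA2 word, and capitals mark AGAA.

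NASP exon 6: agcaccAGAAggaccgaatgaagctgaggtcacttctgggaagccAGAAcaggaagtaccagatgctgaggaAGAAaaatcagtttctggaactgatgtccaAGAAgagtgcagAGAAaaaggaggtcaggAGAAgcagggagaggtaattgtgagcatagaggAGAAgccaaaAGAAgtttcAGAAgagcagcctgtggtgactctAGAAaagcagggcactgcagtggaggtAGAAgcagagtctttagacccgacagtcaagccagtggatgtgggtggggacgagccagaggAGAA

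A match of letters is a description and not a binding site. The deposited values are sums per gene, so they give the level of *NASP* and not the share of transcripts that include this exon. The other genes lie at chr6:118894152-118909171 (*ASF1A*, plus strand), chr19:14119512-14136613 (*ASF1B*, minus), chr19:4402640-4445018 (*CHAF1A*, plus), chr21:36385392-36419015 (*CHAF1B*, plus), chr22:19330698-19447450 (*HIRA*, minus), chr6:33318558-33323016 (*DAXX*, minus) and chr2:233833416-233854566 (*HJURP*, minus).

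In the control groups *NASP* was the most abundant of the 8 genes in every line. Its mean was 152 ± 14.6 TPM in A549, 207 ± 25.4 in LN229, 242 ± 35.1 in NCI-H23 and 402 ± 15 in LN319 (SD, n = 3 each). The libraries of LN229 and NCI-H23 overlapped, while A549 lay below both and LN319 above both. *ASF1B* exceeded its paralog *ASF1A* in each control group, with means of 35.5 and 7.11 TPM in A549, 36.4 and 6.49 in NCI-H23, 79.9 and 19 in LN229, and 115 and 27.5 in LN319. The CAF-1 subunits were unequal too, *CHAF1A* running from 29.7 TPM in A549 to 92.5 in LN319 and *CHAF1B* from 8.31 TPM in LN229 to 19 in LN319. *HIRA* was highest in LN229 (32.9 ± 1.65 TPM) and lowest in NCI-H23 (14.1 ± 0.925), which overlapped A549. *DAXX* was lowest in A549 (35.9 ± 9.06 TPM) and highest in NCI-H23 (88.3 ± 4.03), with no overlap between neighbouring lines. *HJURP* means spanned 74.0 to 114 TPM, and LN229, the highest, held 67.2, 138 and 137 TPM and overlapped all other lines. The low value is Luc Control KO replicate 1, a library that stood apart. The other LN229 control libraries lay above every control library of the other lines. The tables of the 4 lines were fitted separately, so these levels were set side by side without a test.

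Whether the loss of either TRA2 protein alone altered chaperone RNA was asked first in the lung lines. It left all 8 genes without a call in both of them. *NASP* in A549 was 136, 162 and 160 TPM in the 3 control libraries, 131, 148 and 108 after TRA2A KD, and 115, 110 and 114 after TRA2B KD. Every TRA2B KD library lay below every control library, yet the log2 fold change of -0.34 (SE 0.13) did not pass (limma adjusted p = 0.325). In NCI-H23 *NASP* was 203, 270 and 254 TPM in the control, 220, 185 and 217 after TRA2A KD, and 243, 241 and 238 after TRA2B KD, and both knockdown groups overlapped the control. Other genes were apart from control in deposited TPM without a call. In every NCI-H23 TRA2A KD library *ASF1A*, *CHAF1A* and *DAXX* were lower and *HIRA* higher. *DAXX* was higher after NCI-H23 TRA2B KD (106 to 115 against 83.8 to 91.5 TPM). *CHAF1A* and *CHAF1B* were lower in every A549 TRA2B KD library. How many of all genes were apart in this way was not counted. The share of all tested genes called in either direction by limma was 0.207% (A549 TRA2A KD), 0.341% (A549 TRA2B KD), 0.976% (NCI-H23 TRA2A KD) and 0.196% (NCI-H23 TRA2B KD). At an unadjusted p under 0.05, 0, 2, 4 and 1 of the 8 chaperone genes stood out in these comparisons in the same order. Over all genes 1851 and 2221 of 16405 (A549) and 2218 and 1729 of 16293 (NCI-H23) did so. Of the 32 genes called after NCI-H23 TRA2B KD 18.8% were lower, and on TPM as deposited 6.25% of those called.

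The joint loss of both proteins lowered 6 of the 8 genes in A549 and the same 6 in NCI-H23. *NASP* fell to 35.7, 37.3 and 48.4 TPM in A549, which is 26.5% of the control mean (log2 fold change -2.0, SE 0.13, limma adjusted p = 2.55e-06). In NCI-H23 it fell to 104, 81.8 and 102 TPM, or 39.5% (log2 fold change -1.49, SE 0.09, adjusted p = 4.52e-07). No DKD library reached any control library in either line. Without Control KD replicate 3 the A549 count was again 6, while the calls over all genes went from 5023 to 6112. The background was wide: in A549 30.6% of all tested genes were called and 16.3% were called lower, and in NCI-H23 43.2% and 23.2%. *NASP* nevertheless lay near the lower end of all genes, with 1.48% (A549) and 2.91% (NCI-H23) of tested genes showing a lower log2 fold change. Of the called genes 53.4% (A549) and 53.8% (NCI-H23) were lower, against 43.0% and 37.0% when TPM was fitted as deposited, and in NCI-H23 that choice moved the median of all genes by 0.15 (log2).

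**Figure D1:**
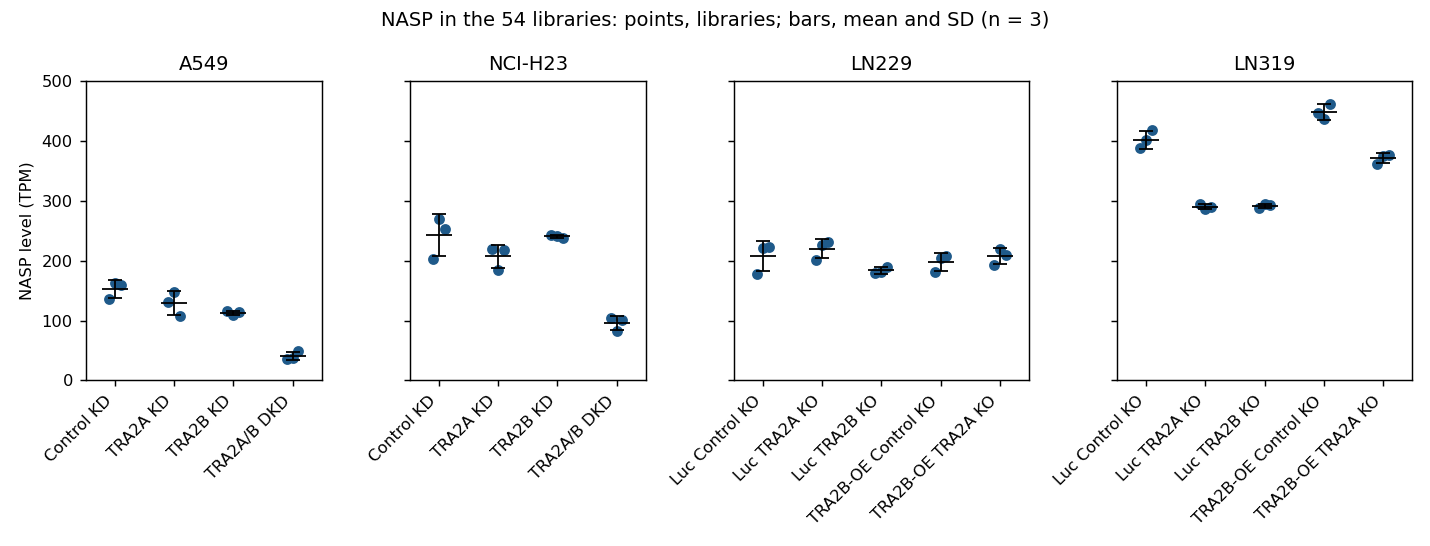
*NASP* level in TPM (vertical axis) in each library (points) of the 18 groups, one panel per cell line, with bars for the mean and SD (n = 3). The DKD groups sit at 35.7 to 48.4 TPM in A549 and 81.8 to 104 TPM in NCI-H23, below all other libraries of their line, and in LN319 the Luc TRA2A KO and Luc TRA2B KO libraries (286 to 295 TPM) sit below the Luc controls (388 to 418 TPM).

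Among the genes that hand H3-H4 on, only *ASF1B* of the 2 paralogs fell. In A549 it went from 30.8, 37.1 and 38.7 TPM in the control to 10.2, 9.87 and 10.6 in the DKD (log2 fold change -1.86, SE 0.10, adjusted p = 1.17e-06). In NCI-H23 it went from 29.7, 37.5 and 41.9 TPM to 15.1, 13.5 and 15.6 (log2 fold change -1.44, SE 0.09, adjusted p = 9e-07). *ASF1A* was 7.42, 9.42 and 4.50 TPM in the A549 control and 9.62, 10.9 and 12.2 in the DKD, a log2 fold change of 0.59 (SE 0.30) that did not pass (adjusted p = 0.165). Without Control KD replicate 3, the library that stood apart, it was 0.22 (adjusted p = 0.416). In NCI-H23 *ASF1A* was 7.28, 6.68 and 5.51 TPM in the control and 9.01, 6.90 and 9.26 in the DKD, and the groups overlapped (log2 fold change 0.21, SE 0.15, adjusted p = 0.291). The levels of the paralogs, *ASF1B* the higher in every control library, overlapped in the A549 DKD, whereas in the NCI-H23 DKD *ASF1B* stayed above *ASF1A* in every library. The ratio of the paralogs was not tested.

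**Figure D2:**
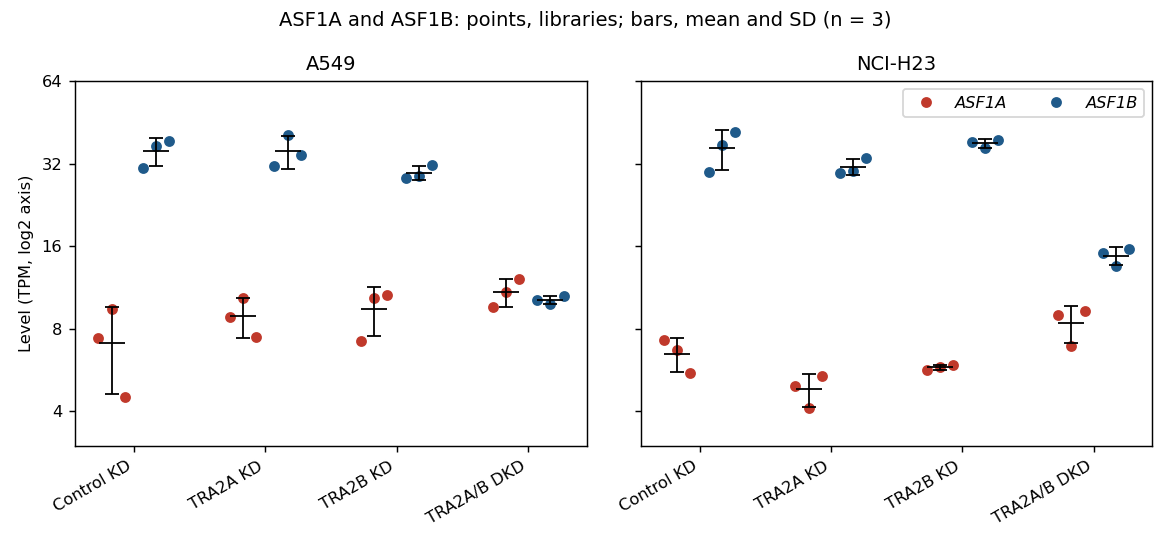
Levels of *ASF1A* and *ASF1B* in TPM (vertical log2 axis) in the libraries (points) of the 4 groups of A549 and of NCI-H23, with bars for the mean and SD (n = 3). *ASF1B* drops to 9.87 to 10.6 TPM in the A549 DKD, within the 9.62 to 12.2 TPM of *ASF1A*, and to 13.5 to 15.6 TPM in the NCI-H23 DKD, above the 6.90 to 9.26 TPM of *ASF1A*.

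The promoters of the paralogs are shown because *ASF1B* was called and *ASF1A* was not, as the 250 bases before the RefSeq start on GRCh38.p14, read on the strand of the gene. *ASF1A* is at chr6:118893902-118894151 (plus strand) and *ASF1B* at chr19:14136590-14136839 (minus strand). Capitals mark matches on either strand to CCAAT and TTTGAA, words found in many cell-cycle promoters, and to 4 words of the E2F kind (TTTCCCGC, TTTGGCGC, TTTCGCGC and TTTGCCGC).

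ASF1A: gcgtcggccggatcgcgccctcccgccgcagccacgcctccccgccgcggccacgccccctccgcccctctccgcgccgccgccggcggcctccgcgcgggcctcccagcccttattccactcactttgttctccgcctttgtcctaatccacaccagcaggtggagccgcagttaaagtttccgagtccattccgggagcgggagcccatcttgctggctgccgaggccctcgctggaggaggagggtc

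ASF1B: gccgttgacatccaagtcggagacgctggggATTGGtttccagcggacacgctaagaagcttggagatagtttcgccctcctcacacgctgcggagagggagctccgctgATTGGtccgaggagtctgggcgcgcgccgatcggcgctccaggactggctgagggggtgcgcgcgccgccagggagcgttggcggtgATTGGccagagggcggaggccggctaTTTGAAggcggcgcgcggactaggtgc

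The *ASF1B* window held 3 CCAAT words and 1 TTTGAA, and the *ASF1A* window held none of the words searched. RefSeq promoters were found for 7 of the 8 genes, all but *DAXX*. CCAAT occurred 4 times in *CHAF1A* and in *HJURP* and 1 time in *NASP*, TTTGAA 1 time in *HJURP*, and an E2F word only in *HIRA*, while *CHAF1B* held no match. Over 34788 promoters of the same length, 32% held CCAAT, 13.3% held TTTGAA and 2.78% held an E2F word. The words were chosen with the responses known, and a match or its absence describes these letters only.

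Both CAF-1 subunits fell with *ASF1B* in the DKD. *CHAF1A* went from 31.4, 29.1 and 28.5 TPM to 12.8, 13.0 and 10.6 in A549 (log2 fold change -1.37, SE 0.14, adjusted p = 4.77e-05). In NCI-H23 it went from 81.8, 79.3 and 80.7 TPM to 39.9, 38.5 and 42.2 (log2 fold change -1.16, SE 0.06, adjusted p = 2.78e-07). *CHAF1B* went from 13.0, 14.4 and 15.1 TPM to 5.30, 5.36 and 5.26 in A549 (log2 fold change -1.47, SE 0.12, adjusted p = 8.33e-06). In NCI-H23 it went from 13.3, 15.5 and 13.0 TPM to 7.91, 7.28 and 7.58 (log2 fold change -1.02, SE 0.08, adjusted p = 4.61e-06). For both subunits the control and DKD libraries were apart in both lines, and the remaining RNA was between 37.5% and 54.5% of control. *HJURP*, the CENP-A chaperone, went from 92.8, 95.0 and 100 TPM to 26.2, 26.1 and 30.5 in A549 (log2 fold change -1.88, SE 0.10, adjusted p = 9.07e-07). In NCI-H23 it went from 61.0, 78.1 and 82.9 TPM to 42.0, 40.4 and 48.0 (log2 fold change -0.91, SE 0.08, adjusted p = 7.26e-06). Its remaining share was thus 28.8% in A549 and 58.7% in NCI-H23, a contrast between lines that was not tested.

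Of the chaperones of the replication-independent variant H3.3, *DAXX* fell in both lines and *HIRA* was not called. *HIRA* was 14.2, 14.8 and 15.8 TPM in the A549 control and 18.2, 13.9 and 14 in the DKD (log2 fold change -0.05, SE 0.15, adjusted p = 0.854). In NCI-H23 it was 13.8, 15.2 and 13.4 TPM in the control and 17.9, 16.8 and 22.6 in the DKD, where every library lay above the control, without a call (log2 fold change 0.27, SE 0.11, adjusted p = 0.0626). That value passed on TPM as deposited (0.42, adjusted p = 0.0167) and with a minimum of 5 TPM (0.33, adjusted p = 0.0237). *DAXX* was 30.2, 31.1 and 46.3 TPM in the A549 control and fell to 19.7, 17.1 and 20.9 (log2 fold change -0.95, SE 0.12, adjusted p = 0.00024). The highest of these controls is the library that stood apart, and without it the log2 fold change was -0.82. In NCI-H23 *DAXX* went from 83.8, 91.5 and 89.7 TPM to 81.2, 76.1 and 82.5, or 90.5% of control (log2 fold change -0.30, SE 0.05, adjusted p = 0.000549), and that call was lost on TPM as deposited (-0.14, adjusted p = 0.0865).

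**Figure D3:**
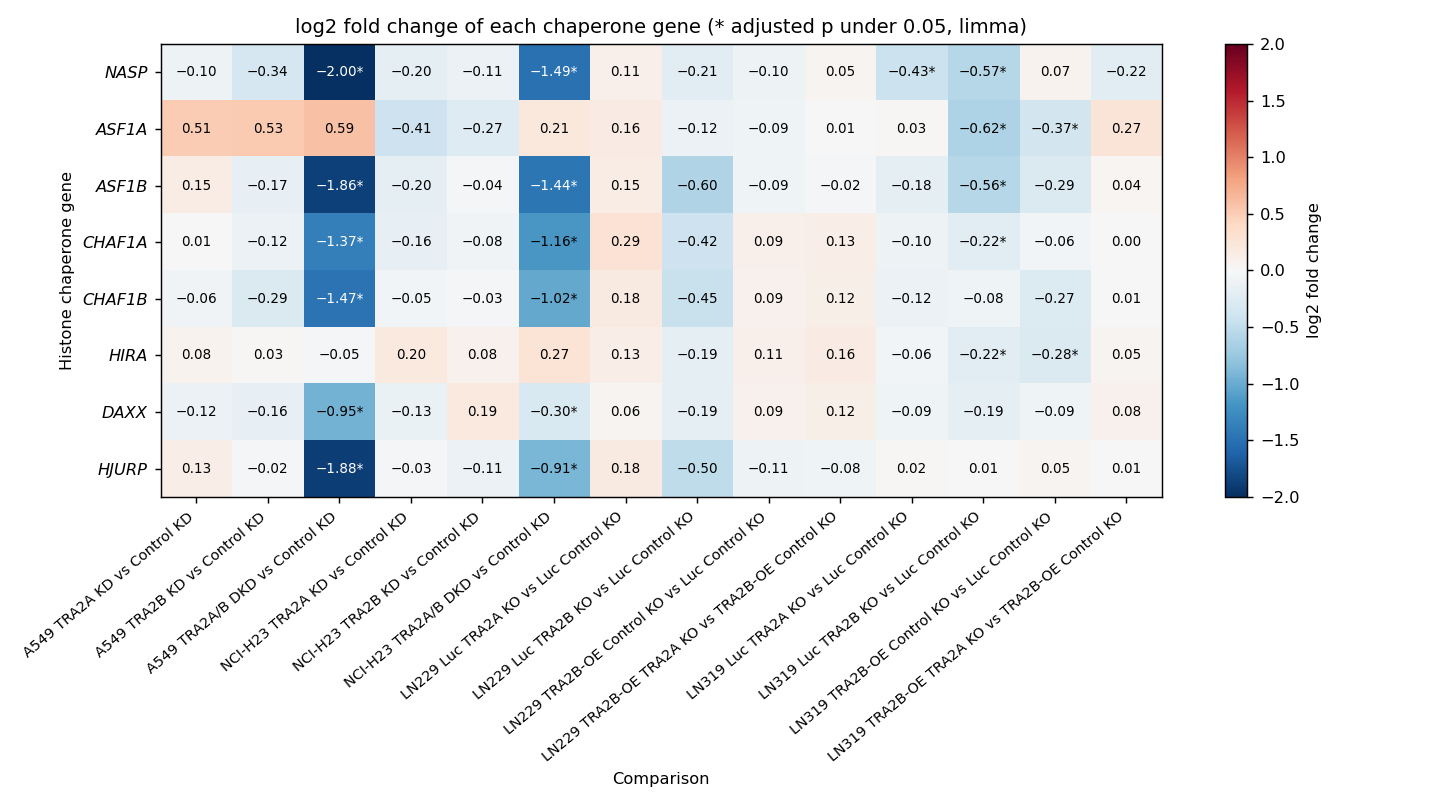
log2 fold change of each of the 8 chaperone genes (rows) in each comparison (columns), as colour and number, with a star where the limma adjusted p was under 0.05. The 6 starred genes of both DKD columns run from -2.0 (*NASP*, A549) to -0.30 (*DAXX*, NCI-H23), the single knockdown columns and all LN229 columns carry no star, and LN319 carries 1 in Luc TRA2A KO, 5 in Luc TRA2B KO and 2 in TRA2B-OE Control KO.

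Whether the DKD went beyond what the single knockdowns added up to was tested as the DKD log2 fold change minus the sum of both single changes, a contrast that shares its control libraries with the comparisons above. The same 6 genes lay below the sum in A549, where 14.7% of all tested genes were called and 8.89% were called lower. *HJURP* (-1.99, adjusted p = 3.27e-05), *ASF1B* (-1.84, adjusted p = 6.28e-05) and *NASP* (-1.56, SE 0.18, adjusted p = 0.000397) lay furthest below it. *DAXX* passed narrowly (-0.67, adjusted p = 0.0291) and did not on TPM as deposited (-0.35, adjusted p = 0.347), nor without any of 8 single libraries, Control KD replicate 1 among them (adjusted p of 0.0555 to 0.0753). Without Control KD replicate 3 the same 6 genes were called, *DAXX* at -0.76 (adjusted p = 0.00614) and *NASP* at -1.49. The calls over all genes then went from 2417 to 3591. In NCI-H23, with 21% called, 12.8% lower and 8.23% higher, these 6 genes again lay below the sum, with *ASF1B* at -1.21 (adjusted p = 0.000158) and *NASP* at -1.18 (SE 0.12, adjusted p = 0.000129), though *DAXX* (-0.36, adjusted p = 0.00416) was not called after quantile normalization (-0.20, adjusted p = 0.0795). *ASF1A* lay above it by 0.88 (SE 0.21, adjusted p = 0.0138), since both single knockdowns stood below the control (-0.41 and -0.27, neither called) and the DKD above it. Of all genes called 60.4% (A549) and 60.9% (NCI-H23) were lower, against 27.3% and 50.5% on TPM as deposited, where the A549 median of all genes moved by 0.31 (log2).

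Genes of the cell cycle moved alongside the chaperones. Of 40 S phase genes that are neither chaperones nor their partners, 35 fell in the A549 DKD (median log2 fold change -1.12) and 38 in the NCI-H23 DKD (median -0.85), against a median of 0.03 and 0.02 over all genes. Of 51 G2/M genes 42 fell in A549 (median -1.28) and 45 in NCI-H23 (median -0.85). Beside these counts, 16.3% (A549) and 23.2% (NCI-H23) of all tested genes were called lower. The summed TPM of the S phase genes went from 1672 to 1804 in the A549 control to 831 to 909 in the DKD, and from 2119 to 2434 to 1275 to 1451 in NCI-H23. The G2/M sum went from 4104 to 4545 to 2107 to 2171 in A549, and from 4587 to 5382 to 3321 to 3753 in NCI-H23. Across the 8 chaperone genes the median was -1.42 in A549 and -0.97 in NCI-H23. The part of the cell cycle genes in the chaperone result was not tested.

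**Figure D4:**
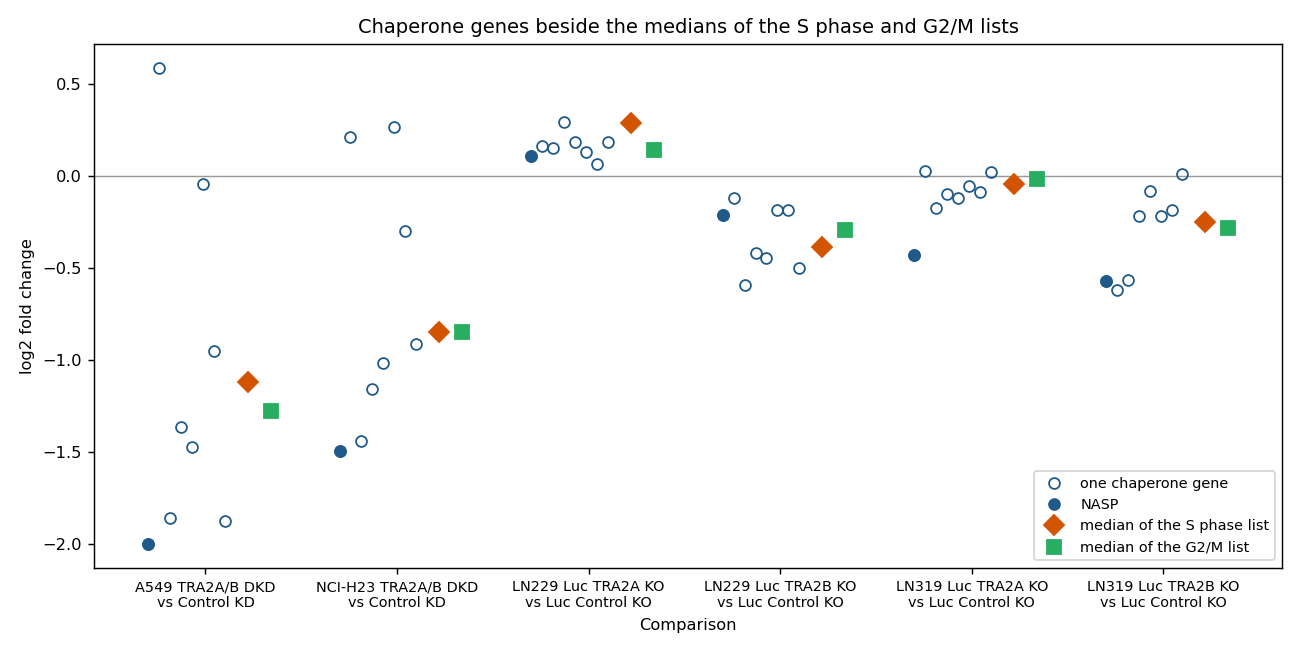
log2 fold change (vertical axis) of each chaperone gene (points) in 6 comparisons, beside the medians of the S phase and G2/M lists. In both DKDs *NASP*, *ASF1B*, *CHAF1A*, *CHAF1B* and *HJURP* sit at or below -0.91 with the list medians at -0.85 to -1.28, while in LN319 Luc TRA2A KO *NASP* sits at -0.43 with medians of -0.05 and -0.02.

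In LN319, a line classed as dependent on *TRA2A*, its knockout lowered *NASP* alone among the 8 genes. *NASP* was 388, 402 and 418 TPM in the Luc control libraries and 295, 286 and 290 after Luc TRA2A KO, or 72.2% of control, and the groups were well apart (log2 fold change -0.43, SE 0.06, limma adjusted p = 0.000545). Of all tested genes 14.3% were called and 7.44% were called lower, and 10.9% had a lower log2 fold change than *NASP*. The other 7 genes ran from -0.18 (*ASF1B*) to 0.03 (*ASF1A*). S phase genes had a median of -0.05, with 3 lower and 1 higher of 40, and G2/M genes a median of -0.02, with 1 lower and 2 higher of 51. The summed S phase TPM of 2170 to 2395 overlapped the 2365 to 2612 of the controls. Mitochondrial transcripts took 13.2% to 15% of TPM against 12.1% to 12.8% in the control, and their part in the result was not tested. Of the genes called 52.2% were lower, against 66.1% on TPM as deposited. The call on *NASP* held in every alternative tried (adjusted p of at most 0.0116).

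With the *TRA2B* transgene, *NASP* in LN319 was 447, 436 and 462 TPM in the control and 362, 374 and 377 after TRA2A KO, or 82.7% of that control. These libraries did not overlap either, but the log2 fold change of -0.22 (SE 0.06) missed the threshold (adjusted p = 0.0672). None of the 8 genes was called, with 2.77% of all tested genes called. An unadjusted p under 0.05 was reached by 2 of the 8 and by 3465 of all 19303. The *NASP* value passed on TPM as deposited (-0.27, adjusted p = 0.00614) and after quantile normalization (-0.30, adjusted p = 0.00746). It also passed with a minimum of 5 TPM (adjusted p = 0.0181) and without TRA2B-OE TRA2A KO replicate 3 (adjusted p = 0.0443). The response of *NASP* with the transgene minus that with luciferase was 0.22 (SE 0.08), which did not pass (adjusted p = 0.526). In that contrast 0 of the 8 genes and 0.0207% of all tested genes were called. There 1 of the 8 and 1527 of all 19303 stood at an unadjusted p under 0.05. Of the 534 genes called after TRA2B-OE TRA2A KO 46.6% were lower, and 71.6% on TPM as deposited.

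*TRA2B* knockout in LN319 lowered 5 of the 8 genes, in a comparison where 42.6% of all tested genes were called and 24.0% were called lower. *NASP* fell to 287, 294 and 293 TPM, 72.5% of the Luc control (log2 fold change -0.57, SE 0.06, adjusted p = 2.62e-05). Its deposited TPM were close to those after Luc TRA2A KO, but on the scaled values its fall was larger than there. The knockouts were not tested against each other. *ASF1A*, not called against control in either lung line, went from 26.6, 28.1 and 27.9 TPM to 19.4, 19.7 and 18.6. Its log2 fold change was -0.62 (SE 0.09, adjusted p = 0.000192). *ASF1B* went from 115, 108 and 123 TPM to 79.9, 87.1 and 84.9 (log2 fold change -0.56, SE 0.13, adjusted p = 0.00355). All 3 genes were below the control in every library. *CHAF1A* (-0.22, adjusted p = 0.00726) and *HIRA* (-0.22, adjusted p = 0.0158) were called with smaller changes, and both calls were lost on TPM as deposited, where 3 genes remained. *CHAF1A* was also lost after quantile normalization (-0.07, adjusted p = 0.284), where *HJURP* was called higher (0.17, adjusted p = 0.0214), and *HIRA* with a minimum of 5 TPM, with only these groups fitted and without each of 3 single libraries in turn (Luc Control KO replicates 1 and 2 and Luc TRA2B KO replicate 3). *CHAF1B* (-0.08), *DAXX* (-0.19, adjusted p = 0.0582) and *HJURP* (0.01) were not called here. *DAXX* did pass without a filter on low TPM (-0.23, adjusted p = 0.0441) and without Luc Control KO replicate 2 (-0.24, adjusted p = 0.0350). *CHAF1B*, *DAXX* and *HJURP* were called in both lung DKDs, where both TRA2 genes were targeted by CRISPRi for 5 days. The lung TRA2B KDs called none of the 8 genes. In LN319 *TRA2B* alone was knocked out with Cas9 for 7 days, so line, perturbation, method and time cannot be told apart, and the difference was not tested. Mitochondrial transcripts took 18.3% to 20.6% of TPM in the LN319 Luc TRA2B KO libraries against 12.1% to 12.8% in the control. S phase genes had 17 lower and 4 higher of 40 (median -0.25) and G2/M genes 35 lower and 3 higher of 51 (median -0.29). The part of either in the chaperone result was not tested. Of the genes called 56.3% were lower, against 43.6% on TPM as deposited, which moved the median of all genes by 0.11 (log2).

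The *TRA2B* transgene itself was compared with luciferase under control guides. In LN319 *ASF1A* fell from 26.6, 28.1 and 27.9 TPM to 21.5, 24.9 and 21.5 (log2 fold change -0.37, SE 0.09, adjusted p = 0.038), and *HIRA* stood at 19.5, 19.7 and 17.8 TPM against 22.2, 23.7 and 19.5 (-0.28, SE 0.06, adjusted p = 0.0335), with libraries that overlapped. Here 4.31% of all tested genes were called and 2.16% were called lower, and the number of chaperone genes called ran from 0 to 3 when single libraries were left out and was 0 without a filter on low TPM or with only these groups fitted. *NASP* was 111% of the Luc control (0.07, adjusted p = 0.48), passing on TPM as deposited (0.16, adjusted p = 0.0441) and after quantile normalization (0.23, adjusted p = 0.0201). Of the genes called 50.0% were lower, and 27.8% on TPM as deposited. In LN229 none of the 8 genes was called for the transgene (limma). At an unadjusted p under 0.05 stood 0 of the 8 and 2629 of all 18490. Of all tested genes 1.03% were called, of which 22.6% were lower and 10.1% on TPM as deposited. The 8 values ran from -0.11 to 0.11, from -0.46 to 0.12 without Luc Control KO replicate 1, and from -0.06 to 0.32 without TRA2B-OE Control KO replicate 1.

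In LN229, a line classed as independent of *TRA2A*, none of the 8 genes was called in any comparison on all libraries. *NASP* was 178, 222 and 223 TPM in the Luc control, 202, 226 and 231 after Luc TRA2A KO, and 180, 181 and 190 after Luc TRA2B KO, and each group overlapped the control. After Luc TRA2A KO 3.68% of all tested genes were called by limma. An unadjusted p under 0.05 was reached by 0 of the 8 and by 3996 of all 18490. All 8 log2 fold changes were between 0.06 and 0.29. That common sign rests on Luc Control KO replicate 1: without it the values ran from -0.17 (*HJURP*) to 0.14 (*HIRA*), and *NASP*, *ASF1A*, *ASF1B*, *CHAF1B* and *HJURP* were below zero. With the transgene 6.07% of all tested genes were called for *TRA2A* guides, of which 60% were lower and 48.6% on TPM as deposited. There 1 of the 8 and 4148 of all 18490 stood at an unadjusted p under 0.05. The effect of these guides on the 8 genes ran from -0.08 to 0.16. Without TRA2B-OE Control KO replicate 1 it ran from -0.33 (*HJURP*) to 0.098 (*HIRA*), with 6 of the 8 below zero. The difference of these responses had 0 genes called of all 18490 tested, and 1051 at an unadjusted p under 0.05, none of them a chaperone gene. After Luc TRA2B KO all 8 genes were below zero, from -0.60 (*ASF1B*, adjusted p = 0.171) to -0.12 (*ASF1A*). An unadjusted p under 0.05 was reached by 3 of them and by 4302 of all 18490. Of all tested genes 0.568% were called. Of those called 60% were lower, and 48.8% on TPM as deposited.

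The Luc TRA2B KO values turn on 1 control library. *ASF1B* was 50.8, 93.0 and 95.8 TPM in the Luc control and 55.0, 52.1 and 50.1 after TRA2B KO, so that replicate 1 of the control lay within the knockout range and the other controls far above it. In 5 more genes that library lay below every knockout library and the other controls above them. These were *HJURP*, at 67.2, 138 and 137 TPM against 77.4, 80.3 and 79.3, *CHAF1A*, at 26.5, 43.3 and 45.3 against 27.6, 28.5 and 30.2, *CHAF1B*, at 5.14, 9.90 and 9.91 against 5.66, 6.45 and 5.92, *ASF1A*, at 14.8, 21.2 and 20.9 against 15.4, 18.8 and 19.2, and *NASP*, whose values stand above. Without that library 6 genes were called lower, in a comparison where 20.8% of the genes tested were then called and 12.2% were called lower. They were *ASF1B* (-0.90, adjusted p = 0.0112), *HJURP* (-0.86, adjusted p = 0.00874), *CHAF1B* (-0.77, adjusted p = 0.0105), *CHAF1A* (-0.68, adjusted p = 0.0227), *NASP* (-0.33, adjusted p = 0.0266) and *ASF1A* (-0.30, adjusted p = 0.0477). The other LN229 comparisons had 0 called without it. Replicate 1 of the TRA2B-OE Control KO was low in the same genes, *ASF1B* being 53.3, 89.4 and 86.5 TPM and *HJURP* 74.4, 126 and 118. The summed S phase TPM was 1728 in the low Luc control library and 2884 and 2906 in the others, and 1843 to 1938 after TRA2B KO. The part of the cell cycle genes in this result was not tested.

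**Figure D5:**
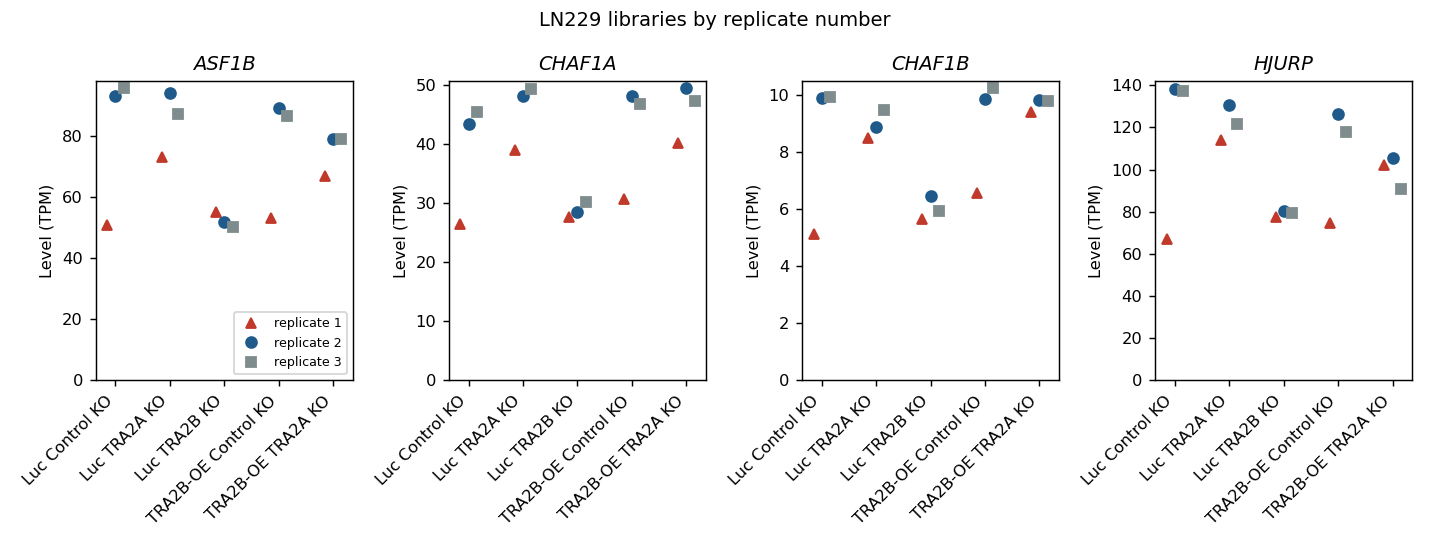
Levels in TPM (vertical axis) of chaperone genes in the 15 LN229 libraries, marked by replicate number, with the groups along the horizontal axis. Replicate 1 of Luc Control KO and of TRA2B-OE Control KO lies far below the other libraries of its group for *ASF1B* (50.8 and 53.3 TPM) and *HJURP* (67.2 and 74.4 TPM).

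The wider network was followed through 27 further genes that supply, bind or deposit histones, all of which were tested in every line. In the A549 DKD 18 fell and 1 rose (median log2 fold change -0.55), beside 16.3% of all tested genes called lower. *OIP5*, a subunit of the MIS18 complex that readies centromeres for CENP-A, fell furthest, from 10.9, 12.8 and 14.8 TPM to 2.68, 2.22 and 2.91 (-2.33). Its partner *MIS18A* (-0.58) fell too, as did *CENPA* itself (-0.91). The H3-H4 binders of the replication fork *MCM2* (-1.27) and *TONSL* (-1.04) fell, along with *SSRP1* (-0.95) and *SUPT16H* (-0.55), the subunits of the FACT complex. *CABIN1*, a partner of HIRA, fell by 0.90, and *ANP32E*, a chaperone that removes the variant H2A.Z, fell by 1.33. *HAT1* (-0.68), which acetylates new histone H4, *IPO4* (-0.62), which imports H3-H4, and *RBBP4* (-0.39) and *RBBP7* (-0.70), histone-binding proteins shared by several complexes, were lower as well. Other calls were *NAP1L1* (-0.87), *SET* (-0.50), *NAP1L4* (-0.41) and the H3.3 gene *H3F3A* (-0.49), while *H3F3B*, which encodes the same protein, rose (0.49, adjusted p = 0.0294), calls that were lost in 8 and 4 alternatives. The call on *RBBP4* was lost in 5, those on *MIS18A* and *NAP1L4* in 2, and those on *HAT1*, *CENPA* and *SET* in 1.

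In the NCI-H23 DKD 15 of the 27 fell and 3 rose (median -0.34), beside 23.2% of all tested genes called lower. *OIP5* was again lowest (-1.12), from 21.3, 24.9 and 26.5 TPM to 12.5, 10.7 and 13.8. *TONSL* (-0.94), *IPO4* (-0.81), *ANP32E* (-0.79), *SSRP1* (-0.71), *CENPA* (-0.68), *MIS18A* (-0.59), *NAP1L1* (-0.56), *MCM2* (-0.54), *HAT1* (-0.51) and *RBBP7* (-0.34) fell in both lines. *ATRX*, the partner of DAXX, fell in NCI-H23 (-0.84, adjusted p = 0.0039), from 54.1, 40.9 and 45.2 TPM to 23.7, 29.2 and 34.4. In A549 it was 45.8, 41.3 and 108 TPM in the control and 55.5, 54.1 and 46.7 in the DKD, the control of 108 TPM being the library that stood apart, and it was not called. *UBN1* (-0.51) and *DNAJC9* (-0.31) also fell in NCI-H23, and *UBN2* (0.66), *H3F3B* (0.43) and *NPM1* (0.28) rose. The call on *DNAJC9* was lost in 5 alternatives and that on *UBN1* in 3. The call on *RBBP7* was lost on TPM as deposited, and that on *NPM1* without a filter on low TPM (0.20, adjusted p = 0.169). UBN1 and UBN2 are paralogous subunits of the HIRA complex, and they moved in opposite directions there, the call on *UBN1* being lost on TPM as deposited. Beyond the sum of the single knockdowns 16 of the 27 were lower in A549 (8.89% of all tested genes) and 12 lower and 3 higher in NCI-H23 (12.8% and 8.23%). None of the 27 was called in the 4 single knockdown comparisons (limma, 2 to 6 at an unadjusted p under 0.05).

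In LN319 Luc TRA2B KO 17 of the 27 fell and 4 rose, beside 24% of all tested genes called lower. The genes of H3.3 led the list, *H3F3A* at -0.95 and *H3F3B* at -0.69, followed by *NPM1* (-0.69), a nucleolar chaperone, *SSRP1* (-0.54), *HAT1* (-0.53), *ANP32E* (-0.48) and *NAP1L1* (-0.45). *UBN2* (0.52), *CDAN1* (0.50), a partner of ASF1, and *CABIN1* (0.29) were among those that rose. After Luc TRA2A KO the only gene of the 27 called was *ATRX*, which fell from 35.8, 45.5 and 34.9 TPM to 29.1, 26.5 and 24.1 (-0.50, adjusted p = 0.00234). With the *TRA2B* transgene *ATRX* was higher under control guides, at 66.0, 60.2 and 59.0 TPM (0.59, adjusted p = 0.00425). That call was lost with only the groups compared (adjusted p = 0.104). *ATRX* fell to 45.8, 49.1 and 43.5 with *TRA2A* guides (-0.36, adjusted p = 0.0405), a call that was lost in 9 alternatives. In LN229 the calls were *SUPT6H* for the transgene (0.30, adjusted p = 0.0321), lost in 7 alternatives, and *H3F3B* for *TRA2A* guides with the transgene (-0.40, adjusted p = 0.00857).

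Across all 54 libraries, after the mean of each line was subtracted, the gene most like *NASP* of 13362 compared was *NCAPH*, a condensin subunit (Pearson's r = 0.967), followed by *TP53RK* (0.963) and *LMNB1* (0.958), which encodes lamin B1. Among the chaperones *NASP* was most like *ASF1B* (0.933), then *HJURP* (0.896), *CHAF1A* (0.893), *CHAF1B* (0.865) and *DAXX* (0.799). Its correlation was -0.04 with *HIRA* and -0.20 with *ASF1A*. Within single lines the order differed: with *HJURP* it was 0.985 in A549 (12 libraries) and 0.203 in LN319 (15 libraries), with *CHAF1B* 0.985 and -0.05, and with *ASF1A* from -0.59 in NCI-H23 to 0.71 in LN229. The gene most like *ASF1B* was *FEN1* (0.967), most like *CHAF1A* *ATAD2* (0.967) and most like *HJURP* *GTSE1* (0.969). For *ASF1A* it was *MRPL45* (0.857), for *DAXX* RP11-332M2.1 (0.853) and for *HIRA* *WDR3* (0.624). These are descriptions over libraries that share their treatments and controls, so no p is given.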

How the data were processed

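Poly-A RNA was sequenced in 54 directional libraries, and reads were quantified by the authors with kallisto 0.48.0 on GRCh38 (STAR 2.7.3 is also listed in the submitters' processing notes). The authors deposited TPM per gene in 4 tables, 1 per cell line, neither scaled between libraries nor logged. Libraries were scaled here by trimmed mean of log ratios without weights (30% and 5% trimmed), genes that reached 1 TPM in 4 or more libraries entered (16405, 16293, 18490 and 19303 in A549, NCI-H23, LN229 and LN319), and log2(scaled TPM + 0.1) was fitted per line with limma 3.58.1 (R 4.3.3, mean-variance trend, two-sided), with Benjamini-Hochberg adjustment over all genes tested and calls at 0.05. Fold changes are on that log2 scale, which understates changes of low genes, and percentages of control use deposited TPM. The study used counts with voom, which TPM does not allow. Tables used numpy 2.4.6 and pandas 2.3.3 under Python 3.11.15. The 8 genes and all lists were chosen with earlier results of these data known. Besides these, network genes called in a comparison and the genes most correlated with each chaperone were named, apart from a few that are not reported here. On simulated data with 200 genes changed 4-fold, 77.4% of them were recovered for the A549 DKD (15779 genes), 81.9% for the NCI-H23 DKD (15690), 86.3% for LN229 Luc TRA2A KO (17924) and 87.8% for LN319 Luc TRA2A KO (18747). False calls made up 7.36%, 4.24%, 5.56% and 7.98% of the calls. Alternatives were a pseudocount of 1, no filter, a minimum of 5 TPM, TPM as deposited, quantile normalization, only the groups compared, a replicate block, and leaving out each library.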

Additional observations from a re-analysis of the deposited data

How the results depend on the processing

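The 144 fold changes of chaperone genes were recomputed under 2064 combinations of result and alternative. In 2012 the call stayed on its side of the threshold, in 32 it was lost, in 20 it was gained, and in 0 did a called value change sign. The DKD comparisons counted 6 (A549) and 6 to 7 (NCI-H23) called genes over the alternatives, and LN319 Luc TRA2A KO 1. Beyond the sum of the single knockdowns the count was 5 to 6 in A549 and 7 in NCI-H23 with single libraries left out. For LN319 Luc TRA2B KO it was 3 instead of 5 on TPM as deposited, and 4 to 5 with libraries left out. For the transgene in LN319 it was 0 instead of 2 without a filter on low TPM or with only the groups compared, and 0 to 3 with libraries left out, the 0 arising without Luc Control KO replicate 1 or 2 or TRA2B-OE Control KO replicate 1 and the 3 without TRA2B-OE Control KO replicate 3. For TRA2B-OE TRA2A KO in LN319 it was 1 instead of 0 after quantile normalization, with a minimum of 5 TPM or on TPM as deposited, and 0 to 1 with libraries left out. For LN229 Luc TRA2B KO it was 0 to 6, the 6 arising only without Luc Control KO replicate 1. The causes were not tested. Of the called network genes, 1260 of the recomputed values kept their call, 147 lost it, and 1 reversed: *SET* beyond the sum of the single knockdowns in A549 stood at 0.043 after quantile normalization (adjusted p = 0.923) against -0.43.

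By correlation over all genes, same replicate numbers did not pair the samples: deviations of same-numbered libraries correlated over 0.1 in 3 of 18, 1 of 18, 3 of 30 and 0 of 30 pairs, at -0.154 to 0.130 in A549, -0.079 to 0.110 in NCI-H23, -0.085 to 0.212 in LN229 and -0.052 to 0.099 in LN319. With a replicate block *NASP* was called after TRA2B-OE TRA2A KO in LN319 (-0.22, adjusted p = 0.0216), making the count 1 instead of 0, and *ASF1B* for the transgene in LN319 (-0.29, adjusted p = 0.0467). The block changed no other chaperone call. In LN229 replicate 1 was nonetheless the lowest of its group in all 5 groups for *NASP*, *CHAF1A* and *CHAF1B*. Over all genes it raised the calls from 681 to 1585 (LN229 Luc TRA2A KO), 105 to 1297 (LN229 Luc TRA2B KO), 190 to 329 and 832 to 1923 (the transgene in LN229 and LN319) and 1122 to 1890 (LN229 TRA2B-OE TRA2A KO). With only the groups compared those counts were 1, 0, 2, 41 and 192, and calls went from 34 to 1 and 56 to 6 (A549 TRA2A KD and TRA2B KD), 5023 to 2922 (A549 DKD), 159 to 4 and 32 to 13 (NCI-H23 TRA2A KD and TRA2B KD), 2752 to 1632 (LN319 Luc TRA2A KO) and 534 to 2 (LN319 TRA2B-OE TRA2A KO). Without Luc Control KO replicate 1, LN229 Luc TRA2B KO gave 3822. TPM keeps no depth, so the precision of low values such as *ASF1A* in the lung lines cannot be computed.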
